A study of Mus musculus with 59 samples.

Results

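With serum of non-carrier mice, embryoid bodies of some culture runs had a higher level of amino-acid stress genes than those of other runs, and the genes that differed alongside were examined here. The 17 arrays, of 59 in the series, are all exposures to serum of non-carrier mice. They comprise 9 arrays of runs B, E and F, called the high runs, and 8 arrays of runs A and C, called the low runs. The runs were chosen by the level of ATF4 target genes on these same arrays, so the difference in those genes is given as a description and was not tested. Run B was high with non-carrier serum only, so its level is not one of the run as a whole.

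The study exposed embryoid bodies containing spinal motor neurons to mouse serum for 24 h and measured their RNA on Affymetrix mouse exon arrays. The embryoid bodies came from HBG3 embryonic stem cells, which carry a fluorescent reporter under the HB9 (Mnx1) promoter, and were differentiated with retinoic acid and a hedgehog agonist. Serum donors were F1 males of C57BL/6 and SJL parents, either hemizygous for a mutant human SOD1 transgene, labelled HEMI and called carriers (also in the run labelled 10 weeks, though the methods name another mouse model at that age), or littermates without it, labelled NCAR and called non-carriers. The time point in the labels is 9 weeks for every array of the high and low runs, which is near the age the methods give for the donors, and 10 weeks for 1 other run. Within a run the arrays differed by the serum added. The embryoid bodies are whole and unsorted, so each array is a mixture of motor neurons, progenitors and other cells, and fewer cells of a type and less RNA per cell cannot be told apart. The stem cells are 1 line, and the labels name no batch, so runs A to F are ranges of array numbers in the titles and the other runs are sets that share a title stem. The 11 arrays of run C exceed the group sizes described in the methods, so more than 1 batch of cells may be among them.

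ATF4 is a transcription factor whose mRNA is translated preferentially when the initiation factor eIF2 is phosphorylated, as happens when amino acids run short, when unfolded protein gathers in the endoplasmic reticulum (ER) or when mitochondria fail. It then drives genes for amino acid uptake, amino acid synthesis and tRNA charging, together with its partner CHOP (Ddit3) and feedback inhibitors such as Trib3. The unfolded protein response has further arms, under ATF6 and XBP1, whose targets are ER chaperones.

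The ATF4 level of an array was taken as the mean log2 intensity of 41 genes for ATF4 and CHOP factors, for serine and one-carbon metabolism and for synthesis of other amino acids. With non-carrier serum the arrays of the high runs lay between 8.66 and 9.23, with a median of 9.02. Those of the low runs lay between 8.27 and 8.47, with a median of 8.41. The groups do not overlap, which the choice of runs fixed, and their means differed by 0.59 on the log2 scale, or 1.5-fold. The lowest array of the high runs was array NCAR108 of run B at 8.66, and the highest of the low runs was array NCAR101 of run A at 8.47.

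Not every run with a raised level was among the high runs. The 3 non-carrier arrays of the run labelled 10 weeks lay between 8.99 and 9.30, and the 4 of run D between 8.73 and 8.93, within or above the range of the high runs. The 4 arrays of the run titled motorneuron, at 8.44 to 8.64, and the 2 of the run titled HB9MNs, at 8.53 and 8.54, lay near the low runs. These 13 arrays entered neither group.

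**Figure D1:**
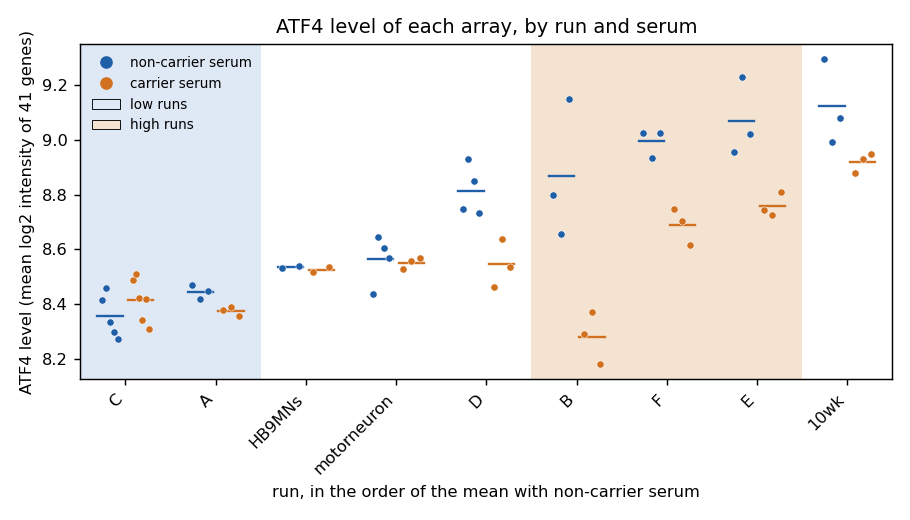
ATF4 level (mean log2 intensity of 41 genes, y axis) of each of the 59 arrays, by run (x axis) and serum, with a line at the mean of each set and the low and high runs shaded. Non-carrier arrays of the high runs sit between 8.66 and 9.23, whereas the carrier arrays of run B, at 8.18 to 8.37, sit among or under the low runs.

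Of the 4 genes given as markers of the programme, 3 separated the groups. Mthfd2, the mitochondrial enzyme that turns one-carbon units from serine into formate precursors, was at 9.45, 9.12 and 10.10 on the arrays of run B, at 9.76, 10.11 and 9.66 in run E and at 9.81, 9.62 and 9.69 in run F. In the low runs it lay between 7.70 and 8.10, a difference of 1.76 or 3.39-fold. All 9 high arrays were thus above all 8 low arrays. Atf4 itself ranged from 10.16 to 10.64 (median 10.55) in the high runs and from 9.52 to 9.80 (median 9.70) in the low runs. Atf3, a stress-induced factor of the same family, ranged from 7.32 to 8.73 (median 8.08) against 6.22 to 7.13 (median 6.75). Ddit3 overlapped, with 7.84 to 8.40 in the high runs and 7.18 to 8.32 in the low runs. These arrays chose the runs, so nothing is read from the separation of the other 3. With carrier serum all 4 overlapped between the same run groups. The differences there were 0.22 for Atf4, 0.31 for Atf3, 0.96 for Mthfd2 and -0.27 for Ddit3.

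The lists of this ATF4 branch, the 3 above with cytosolic aminoacyl-tRNA synthetases and amino acid transporters, hold 76 measured genes. Of these, 36 had every array of the high runs above every array of the low runs, and 2 had every array below. Over all 19613 genes, 1.64% were higher and 3.26% lower in this sense, that is 322 and 640 genes. Since the branch chose the runs, nothing is read from the excess. The median difference of the 76 genes was 0.52, beside -0.014 over all genes. Genes named from the lists beyond the rule in the methods were chosen after their values were seen.

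Promoters of branch genes are shown because the letters TGATGNAA, the core of the element that ATF4 binds with C/EBP partners, are known from several of them. RefSeq windows of 300 bases (250 before to 50 after the start, build GRCm38.p6) were matched for 60 of the 76 genes, and the letters were searched on both strands. They were present for 16 of the 60 genes, or 26.7%, against 4.51% of the 27025 symbols in the table. Among the branch genes whose groups did not overlap upwards 12 of 28 held them, and among the other branch genes 4 of 32. That split uses the values by which the runs were chosen, so nothing is read from it. A match is a description of letters and not of binding. Stretches before the start are given for named genes that hold a match, read 5′ to 3′ on the strand of the gene, with the match or its reverse complement in capitals.
Slc7a11 (cystine transporter gene with the largest difference, chr3:50443627-50443686, minus strand): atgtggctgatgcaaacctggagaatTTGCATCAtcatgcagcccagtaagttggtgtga
Chac1 (glutathione-degrading enzyme, chr2:119351023-119351082, plus strand): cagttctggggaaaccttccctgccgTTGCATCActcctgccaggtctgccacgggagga
Asns (asparagine synthetase, chr6:7693210-7693258, minus strand): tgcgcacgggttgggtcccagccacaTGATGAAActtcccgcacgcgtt
Atf3 (transcription factor, chr1:191183410-191183469, minus strand): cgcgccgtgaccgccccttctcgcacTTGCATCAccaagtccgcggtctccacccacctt
Tars (threonyl-tRNA synthetase, chr15:11399659-11399699, minus strand): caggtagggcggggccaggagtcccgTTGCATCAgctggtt
Pck2 (mitochondrial phosphoenolpyruvate carboxykinase, outside the branch lists, chr14:55540137-55540196, plus strand): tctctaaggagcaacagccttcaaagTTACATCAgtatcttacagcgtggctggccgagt
The Slc7a11 window holds 2 matches, of which the nearer to the start is in capitals, and the other 5 windows hold 1 each.

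The largest differences in the branch were those of the transporters Slc7a11 and Slc7a3, although the median of the 16 transporters, 0.43, was below those of the factors, the serine enzymes and the synthetases. Slc7a11, the light chain of the cystine and glutamate exchanger, was at 7.36, 6.81 and 8.5 in run B, at 8.93, 9.26 and 8.87 in run E and at 8.47, 8.41 and 8.41 in run F. It lay between 4.82 and 5.37 in the low runs, 3.26 lower on the log2 scale or 9.58-fold. Runs A and C were alike, and run B was intermediate for this gene. Slc7a3, a cationic amino acid transporter, ranged from 8.06 to 10.07 (median 9.57) against 6.66 to 7.42 (median 6.94), a difference of 2.42. The arginine transporter Slc7a1 differed by 1.48, the leucine transporter subunit Slc7a5 by 1.39, the neutral amino acid transporter Slc1a4 by 1.0 and the heavy chain Slc3a2 by 0.76. In all, 8 of 16 transporters did not overlap upwards, whereas Slc43a2 was lower by 0.24 without overlap and Slc7a6 and Slc36a4 differed by -0.02 and -0.01. Over all genes 1.64% were higher and 3.26% lower without overlap, and the branch, with these transporters, chose the runs.

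Among enzymes of amino acid synthesis, Cth, which makes cysteine from cystathionine, had the largest difference, 2.30. It ranged from 6.91 to 8.97 (median 8.59) in the high runs and from 5.83 to 6.21 (median 6.00) in the low runs. Asparagine synthetase, Asns, ranged from 11.25 to 12.05 (median 11.57) against 10.60 to 10.95 (median 10.88). Psat1, an aminotransferase of serine synthesis, ranged from 10.49 to 11.30 (median 10.87) against 9.90 to 10.10 (median 9.99). Aldh18a1, which opens proline synthesis, differed by 0.81, the alanine aminotransferase Gpt2 by 0.62, the serine hydroxymethyltransferase Shmt2 by 0.78 and Phgdh by 0.67. These enzymes are those that supply serine, glycine, asparagine, proline and alanine inside the cell. Members that form the folate cofactor in the cytosol did not go with them, since Mthfd1 differed by 0.02 and Aldh1l1, which oxidises formyl-folate, was lower by 0.71 without overlap.

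Of 19 cytosolic aminoacyl-tRNA synthetases 9 did not overlap upwards, with a list median of 0.46. Tars, for threonine, ranged from 8.84 to 9.64 (median 9.49) against 8.43 to 8.70 (median 8.54), and Cars, for cysteine, from 9.41 to 10.06 (median 9.85) against 8.93 to 9.11 (median 9.01). Lars differed by 0.80, Gars and Nars by 0.68 each and Iars by 0.64. The synthetases for aspartate, phenylalanine (alpha subunit), histidine, lysine and glutamine (Dars, Farsa, Hars, Kars and Qars) differed by 0.09, -0.06, -0.01, -0.06 and -0.11, and overlapped. The differences were thus uneven within the list. The 16 mitochondrial synthetases measured, which serve a separate translation system, had a median difference of -0.015 and none without overlap. That count is near the shares over all genes, 1.64% higher and 3.26% lower.

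Among factors and feedback genes, Chac1, which degrades glutathione, ranged from 10.00 to 11.53 (median 10.83) in the high runs and from 8.59 to 8.98 (median 8.90) in the low runs, a difference of 1.90. Eif4ebp1, a repressor of cap-dependent translation, ranged from 9.38 to 10.44 (median 10.17) against 8.14 to 8.64 (median 8.35), a difference of 1.71. The leucine sensor Sesn2 differed by 1.02, the factor Atf5 by 0.85, the pseudokinase Trib3 by 0.76 and the eIF2 phosphatase subunit Ppp1r15a by 0.52. All 6 did not overlap. Ddit4, an inhibitor of mTORC1 that low oxygen also induces, differed by -0.29 and Vldlr by 0.06, both with overlap.

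Of the 19 ER chaperones under ATF6 and XBP1 that were measured, 0 were without overlap, and their median difference was -0.027. The cytosolic heat shock proteins had a median of 0.10 with 0 of 16 without overlap. Targets of NRF2, the factor of the oxidative stress response, had one of 0.088 with 1 of 18 higher and 1 lower. Over all genes 1.64% were higher and 3.26% lower without overlap, and these counts are near those shares.

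Carrier-serum arrays of the same 5 runs, 9 in the high and 9 in the low runs, took no part in the choice. They were not a fresh sample of runs, and run and group cannot be told apart, since no run had arrays in both groups. Run B stayed among the high runs here, by its level with non-carrier serum. Their ATF4 level ranged from 8.18 to 8.81 (median 8.70) in the high runs and from 8.31 to 8.51 (median 8.39) in the low runs, a mean difference of 0.18. The groups overlapped, because the arrays of run B at 8.29, 8.37 and 8.18 lay at or under the low runs, whereas runs E (8.72 to 8.81) and F (8.62 to 8.75) lay above them. Over the 76 branch genes the median difference was 0.17, beside 0.0066 over all genes. Of the 76, 2 had every high array above every low array and 0 had every one below, against 0.811% and 1.76% of all genes.

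The same departure of run B was seen gene by gene. With carrier serum Slc7a11 was at 5.88, 5.67 and 5.10 in run B, at 8.36, 8.11 and 9.24 in run E and at 7.80, 7.46 and 7.32 in run F, against 5.04 to 5.27 in the low runs. Mthfd2 was at 8.35, 8.40 and 7.86 in run B, against 9.34 to 9.40 in run E, 8.93 to 9.21 in run F and 7.68 to 8.34 in the low runs. For both genes run B was thus high with non-carrier serum and close to the low runs with carrier serum. Relative to the low arrays of the same serum, the median of the 76 branch genes was 0.41 in run B with non-carrier serum and -0.013 with carrier serum, 0.63 and 0.38 in run E, and 0.47 and 0.16 in run F.

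Which other genes differed between the high and low runs was tested on the carrier arrays with limma, with the run as a random block, for the 19537 genes outside the branch. At an adjusted p of 0.05, 93 genes (0.476%) were higher and 0.553% of genes lower in the high runs, 201 genes in all, and 2037 passed an unadjusted 0.05. All 201 differed in the same direction with non-carrier serum, where 62 of the higher and 79 of the lower were also without overlap, in other arrays of the same runs. These calls count arrays of a run as partly independent. On simulated arrays with the spread between runs of these data, the same fit made more false calls than the number called here, and a fit to run means made almost none. With 1 mean per run, 3 against 2, only Cdh8 passed (adjusted p = 0.0468, limma) and 6.16% of genes had an unadjusted p under 0.05, so the calls describe these 5 runs and do not show that high and low runs differ in general. They fell to 2 without run A and to 4 without run C, when 1 low run is left, and to 0.517% of genes without array HEMI138 of run E, a carrier array with a low average correlation to its run.

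**Figure D2:**
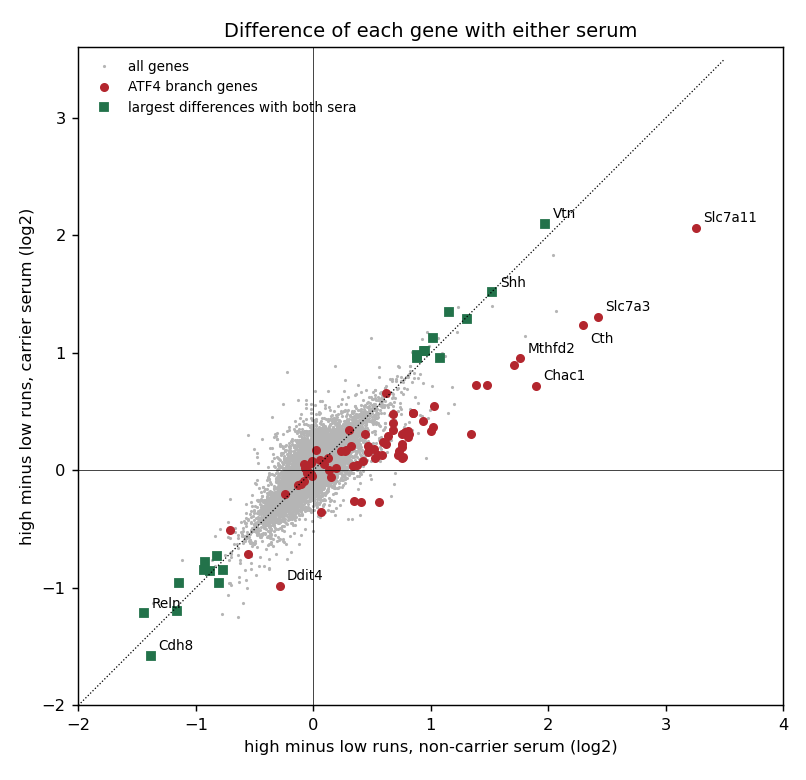
Difference between high and low runs (log2) of each gene with non-carrier serum (x axis) and carrier serum (y axis), with the 76 ATF4 branch genes as circles, the 20 named genes with the largest differences in both sera as squares, and equality as a dotted line. The squares lie near the line, as Vtn at 1.98 and 2.10, and were picked for a large difference with both sera, which favours that place. Large branch differences lie under it, as Slc7a11 at 3.26 and 2.06. The runs were chosen by branch values with non-carrier serum, which favours a place under the line, so nothing is read from the contrast.

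Of 10 genes of the floor plate, the ventral midline of the neural tube, 5 were called higher in the high runs with carrier serum. With non-carrier serum 3 were higher without overlap. Over all genes of each comparison the shares were 0.476% and 1.64%. Shh, the secreted signal of floor plate, was at 8.48, 8.16 and 8.32 in run B, 9.33, 9.17 and 9.13 in run E and 9.48, 9.84 and 9.68 in run F with non-carrier serum, against 7.30 to 7.94 in the low runs. With carrier serum it lay between 8.32 and 9.71 (median 9.32) against 7.08 to 7.99 (median 7.66), a difference of 1.52 ± 0.27 (SE, n = 9 and 9, limma adjusted p = 0.0107). All arrays of the high runs were above all of the low runs with either serum, with run B the lowest of the high runs. With non-carrier serum run D, outside the comparison, had an ATF4 level within the range of the high runs. Its Shh lay within that of the low runs. The transcription factors Foxa2 and Foxa1, which specify floor plate, differed with carrier serum by 1.02 ± 0.18 and 1.02 ± 0.16 (SE, limma adjusted p = 0.0107 and 0.00519). Both were also without overlap with non-carrier serum, with differences of 0.95 and 0.94. The others called were the protease Corin (0.89) and the axon guidance protein Spon1 (0.76), which overlapped with non-carrier serum. Ntn1, Lmx1a and Slit1 differed by 0.32, -0.04 and -0.03 and were not called.

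Outside the floor plate list, 7 more genes were among those with the largest positive differences in both sera. Vtn, the adhesion protein vitronectin, ranged from 9.01 to 10.55 (median 10.30) against 7.30 to 8.37 (median 7.96) with non-carrier serum, and differed by 2.10 ± 0.31 with carrier serum (SE, limma adjusted p = 0.00298). Sulf1, a sulfatase that trims heparan sulfate, differed by 1.31 and 1.29 with non-carrier and carrier serum. Arhgap36, which raises hedgehog signalling, differed by 1.01 and 1.13, C1qtnf3 by 1.16 and 1.35, the peptidase Cpm by 1.07 and 0.96, Arhgap42 by 0.89 and 0.98 and Trim61 by 0.88 and 0.96. Each of these 6 passed the limma test with carrier serum, with adjusted p from 0.00298 to 0.0303.

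Cdh8, a classic cadherin of neurons, was at 7.57, 7.47 and 7.80 in run B, 7.07, 7.04 and 7.13 in run E and 7.23, 7.21 and 7.21 in run F with non-carrier serum, against 8.40 to 8.92 in the low runs. With carrier serum it ranged from 6.96 to 7.51 (median 7.09) against 8.44 to 8.87 (median 8.79), and fell by 1.58 ± 0.13 (SE, n = 9 and 9, limma adjusted p = 2.13e-06). It passed the test in each of the 8 alternatives run for it. Slc6a5, the glycine transporter of inhibitory neurons, was lower by 0.71 with both sera (limma adjusted p = 0.00519 with carrier serum).

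Of 19 interneuron genes 4 were called lower with carrier serum, Slc6a5, Lhx5 and Gad2 among them, and none higher. With non-carrier serum 6 were lower without overlap, and the list median was -0.29, against -0.26 with carrier serum. Over all genes of each comparison 0.553% were called lower and 3.26% were lower without overlap. Per array the summed level of the list, as mean log2 deviation from the average over 59 arrays, ranged from -0.36 to 0.19 in the high and from 0.12 to 0.37 in the low non-carrier runs. The arrays of run B reached the low runs here, with a mean of 0.11 against -0.24 in run F and -0.34 in run E.

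Others lower with both sera were Reln, the secreted guidance protein of early neurons (-1.44 with non-carrier and -1.21 with carrier serum), and Cyp26b1, which degrades retinoic acid (-1.16 and -1.20). Hoxc6, a cervical and thoracic Hox gene, differed by -0.93 and -0.85, and Tfap2b, a factor of neural crest and dorsal interneurons, by -0.92 and -0.78. Fam70a differed by -0.88 and -0.86, Ndrg2 by -0.80 and -0.96, Cdc42ep2 by -0.77 and -0.85 and Elmod1 by -0.82 and -0.73. All 8 passed the limma test with carrier serum, with adjusted p from 0.000239 to 0.0227. Of 39 Hox genes 1 was called, and 3 were lower without overlap with non-carrier serum, where 9 had a positive difference. The medians were -0.072 and -0.012. The shares over all genes were 0.553% called lower and 3.26% lower without overlap.

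The motor neuron genes that the study used for correction between batches gave no call. Olig2, the progenitor factor, ranged with carrier serum from 8.55 to 8.98 (median 8.70) in the high and from 8.87 to 9.11 (median 8.98) in the low runs (difference -0.28 ± 0.10, SE, limma adjusted p = 0.246). Mnx1, Isl1 and Lhx3 differed by 0.0012, 0.0185 and -0.10 (limma adjusted p of 0.999 or above). A p above the threshold does not show that these genes were equal. The only called member among 14 motor neuron genes was Cntn2, a cell adhesion protein that commissural neurons also carry, at 0.55 ± 0.13 (SE, limma adjusted p = 0.0383). Among 20 progenitor genes only the intermediate filament Nes was called (0.55, limma adjusted p = 0.0439). Over all genes tested 0.476% were called higher. With the 4 correction genes as covariates the calls fell from 201 to 1, Cdh8. Only 5 runs enter that fit, so 4 covariates can take up most differences between run means. Nothing about motor neuron content is therefore read from the fall.

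Of 21 genes of DNA replication 6 were called higher with carrier serum, and 8 were without overlap with non-carrier serum. The shares over all genes of each comparison were 0.476% and 1.64%. Mcm3, a subunit of the replicative helicase, ranged with non-carrier serum from 7.90 to 8.37 (median 8.17) against 7.21 to 7.83 (median 7.6), and differed by 0.62 ± 0.11 with carrier serum (SE, limma adjusted p = 0.00709). Mcm5, of the same complex, differed by 0.51 with non-carrier and 0.61 with carrier serum (limma adjusted p = 0.0213). The others called were Mcm2, Mcm4, Pole and Cdc45. The list medians were 0.41 with non-carrier and 0.45 with carrier serum.

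Kif11, the motor of the bipolar spindle, ranged with non-carrier serum from 8.53 to 8.97 (median 8.78) against 7.89 to 8.40 (median 8.12) and differed by 0.66 ± 0.14 with carrier serum (SE, limma adjusted p = 0.0256). Ect2, which directs cytokinesis, differed by 0.52 and 0.51 (limma adjusted p = 0.0369). Of 21 mitosis genes 5 were called higher with carrier serum, against 0.476% of all genes tested, with Aurka, Kif23 and Tpx2 beside these. The medians were 0.33 and 0.44 with non-carrier and carrier serum. Both lists depended on the low run used. Without run A the non-carrier medians were 0.25 for replication and 0.18 for mitosis, and without run C they were 0.61 and 0.57.

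Genes of cholesterol synthesis and uptake are driven by the factor SREBP2. With non-carrier serum all 23 measured had a negative difference, with a median of -0.35, and 4 (Lss, Dhcr7, Insig1 and Acat2) were without overlap. With carrier serum the median was -0.32, and 2 of 23, Lss and the sterol carrier Stard4, were called. Over all genes of each comparison 3.26% were lower without overlap with non-carrier serum and 0.553% called lower with carrier serum. Lss, the lanosterol synthase, ranged from 9.09 to 9.79 (median 9.58) against 9.85 to 10.26 (median 10.06) with non-carrier serum, and fell by 0.59 ± 0.14 with carrier serum (SE, limma adjusted p = 0.0452). Run E was the lowest of the 5 runs for the list with both sera, at a mean deviation of -0.34 and -0.33, whereas run B was at -0.03 and 0.06.

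Hypoxia-inducible and glycolytic genes had a median difference of -0.22 with non-carrier and -0.41 with carrier serum. None of 30 was without overlap, and 2 were called lower with carrier serum, P4ha2, a collagen prolyl hydroxylase (-1.23), and the glycolytic enzyme Pfkp (-0.84). The shares over all genes were 3.26% lower without overlap and 0.553% called lower. Here the groups were not uniform. Run C was at -0.02 and run A at 0.32 with non-carrier serum, and among the high runs B and E were at -0.31 and -0.28 and F at 0.01.

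**Figure D3:**
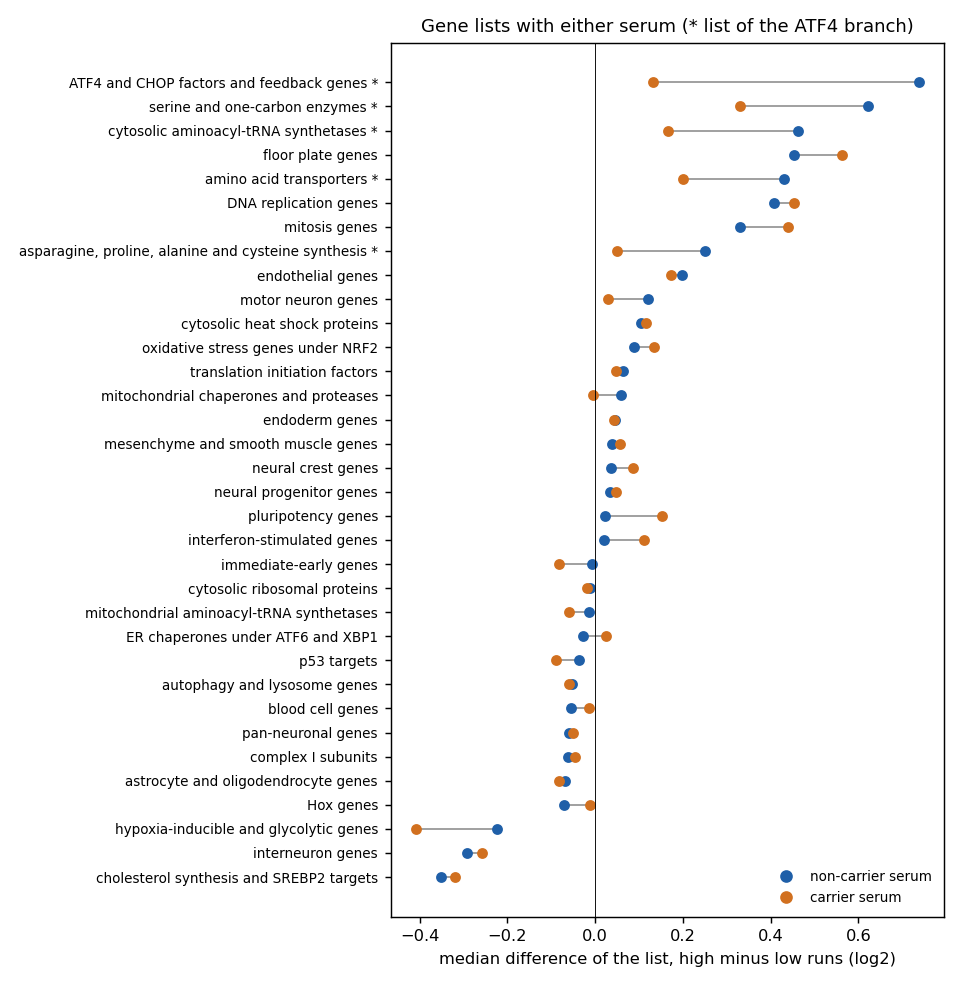
Median difference between high and low runs (log2, x axis) of each gene list with non-carrier and carrier serum, with ATF4 branch lists starred. The branch lists sit higher with non-carrier than with carrier serum (0.74 and 0.13 for factors and feedback genes), whereas floor plate (0.45 and 0.56), interneuron (-0.29 and -0.26) and cholesterol genes (-0.35 and -0.32) sit close together. Branch values with non-carrier serum chose the runs, so nothing is read from that contrast.

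Each other list had at most 1 member called in either direction. Of all genes tested 0.476% were called higher and 0.553% lower, so a list with 0 called is near those shares. Stat2 was the only one of 17 interferon-stimulated genes called, lower by 0.51 with non-carrier and 0.49 with carrier serum (limma adjusted p = 0.0165), and among astrocyte and oligodendrocyte genes 1 was called higher and 1 lower, the latter being the glutamate transporter Slc1a2 (-0.44, limma adjusted p = 0.0277). Markers of pluripotent, endodermal, mesenchymal, endothelial and blood cells, which embryoid bodies can hold, had 0, 1, 1, 1 and 0 members called, namely Dab2 (0.56), Dcn (1.84) and Cdh5 (0.63), and their medians with carrier serum lay between -0.015 and 0.17. Cytosolic ribosomal proteins had 0 of 78 called with a median of -0.018, and complex I subunits 0 of 36 with a median of -0.0465. Median intensities per array were 153 to 163 in the high and 153 to 168 in the low non-carrier arrays, with average correlations within a run of 0.989 to 0.994 in the high and 0.990 to 0.995 in the low non-carrier arrays. The part of other cell types and of array quality in the differences above was not tested.

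**Figure D4:**
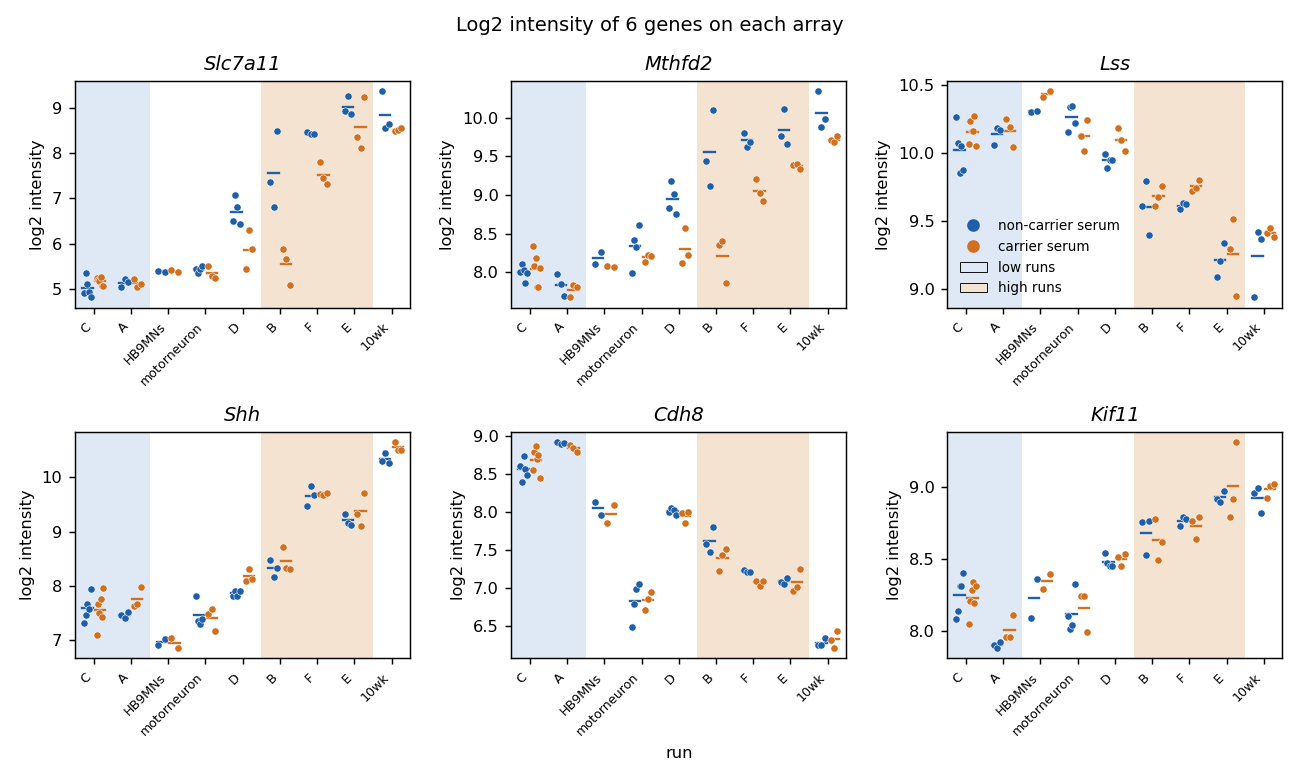
Log2 intensity (y axis) of 6 genes on each array by run (x axis) and serum, with a line at the mean of each set and the low and high runs shaded. Among the shaded runs, the sera part for Slc7a11 in runs B and F and for Mthfd2 in runs B, E and F. With either serum Shh lies higher and Cdh8 lower on every array of the high runs than on any of the low runs.

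The relation between the ATF4 level and other genes was also examined within runs, which differences between runs do not enter. Each gene outside the branch was fitted in limma against the ATF4 level over the 30 non-carrier arrays with the run as a fixed block. The slope is the log2 change per unit of ATF4 level, whose SD within runs was 0.120. At an adjusted p of 0.05, 37 genes (0.189%) had a positive slope and 1 (0.00512%) a negative one, and 1274 passed an unadjusted 0.05. Of the 37 genes 14 were also without overlap upwards between high and low runs, against 1.64% of all genes. None of the 38 was called between high and low runs with carrier serum. Of all genes tested there 0.476% were called higher and 0.553% lower, so that count is near those shares.

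Pck2, which makes phosphoenolpyruvate in mitochondria, had a slope of 1.63 ± 0.16 (SE, limma adjusted p = 3.7e-06). It ranged from 7.78 to 8.65 (median 8.37) in the high and from 6.96 to 7.27 (median 7.09) in the low non-carrier runs, and its promoter stretch is shown above with those of the branch. P2rx3, an ATP-gated channel of sensory neurons, had a slope of 1.73 ± 0.25 (SE, limma adjusted p = 0.000727), and ranged from 8.24 to 10.13 (median 9.95) against 7.34 to 7.62 (median 7.52), 4.19-fold. Trim66, a chromatin-binding protein, had a slope of 1.69 ± 0.20 (SE, limma adjusted p = 0.000119). These 3 genes were without overlap between the run groups too. The other genes with the steepest slopes, 2900055J20Rik at 1.91 ± 0.30 and Gm129 at 1.74 ± 0.37 (SE, limma adjusted p = 0.00221 and 0.0499), overlapped between the run groups.

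Called genes outside the naming rule include Xpot, which exports tRNA from the nucleus, with a slope of 1.07, the mitochondrial chaperone Hspa9 with 0.84, the reductase Cyb5r1 with 1.41 and the factor Nfe2l1 with 0.55. They were chosen after their values were seen. All 23 genes of the cholesterol list had slopes below 0, with a median of -0.40, beside -0.033 over all genes. For these genes the non-carrier difference between run groups and the slope within runs were thus below 0 in every member.

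Genes that set the runs apart with both sera had no called slope. Over all genes 0.189% had a called positive slope and 0.00512% a negative one, so a lack of calls is near those shares. Mcm3 had a slope of 0.06 ± 0.19 (SE, limma adjusted p = 0.984). Shh had a slope of -0.48 ± 0.28 and Cdh8 one of 0.41 ± 0.22 (SE, limma adjusted p = 0.833 and 0.811), and the slope medians of the DNA replication and interneuron lists were -0.028 and -0.083. The slope median was opposite in sign to the difference between run groups for floor plate, replication, mitosis and hypoxia genes. Other lists parted in sign too, among them cytosolic heat shock proteins (0.10 with non-carrier serum, slope -0.067) and complex I subunits (-0.062 and 0.10). For replication the slope median was near that over all genes, -0.033. The slope median was -0.22 for floor plate genes, with 10 of 10 below 0, -0.27 for mitosis genes, with 20 of 21 below 0, and 0.33 for the hypoxia and glycolysis list, with 3 of 30 below 0. Of these lists no gene had a called slope.

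The slopes rested on run B, where the 3 non-carrier arrays spread from 8.66 to 9.15. Without it 7 genes were called, 6 of the 38, Pck2, Trim66, Cyb5r1, Cyb5r2 and Rhbdd1 among them, and Mki67. Without run D or without the run labelled 10 weeks 25 were called. Over the 29 carrier arrays, whose ATF4 level varied less within runs (SD 0.064), and over the 13 non-carrier arrays of the other 4 runs, limma called 0 genes. Of the 38 genes 36 kept their sign over the carrier arrays, and 21 of the 38 had an unadjusted p under 0.05 there, against 6.69% of all genes. Pck2 had a slope of 1.51 there.

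**Figure D5:**
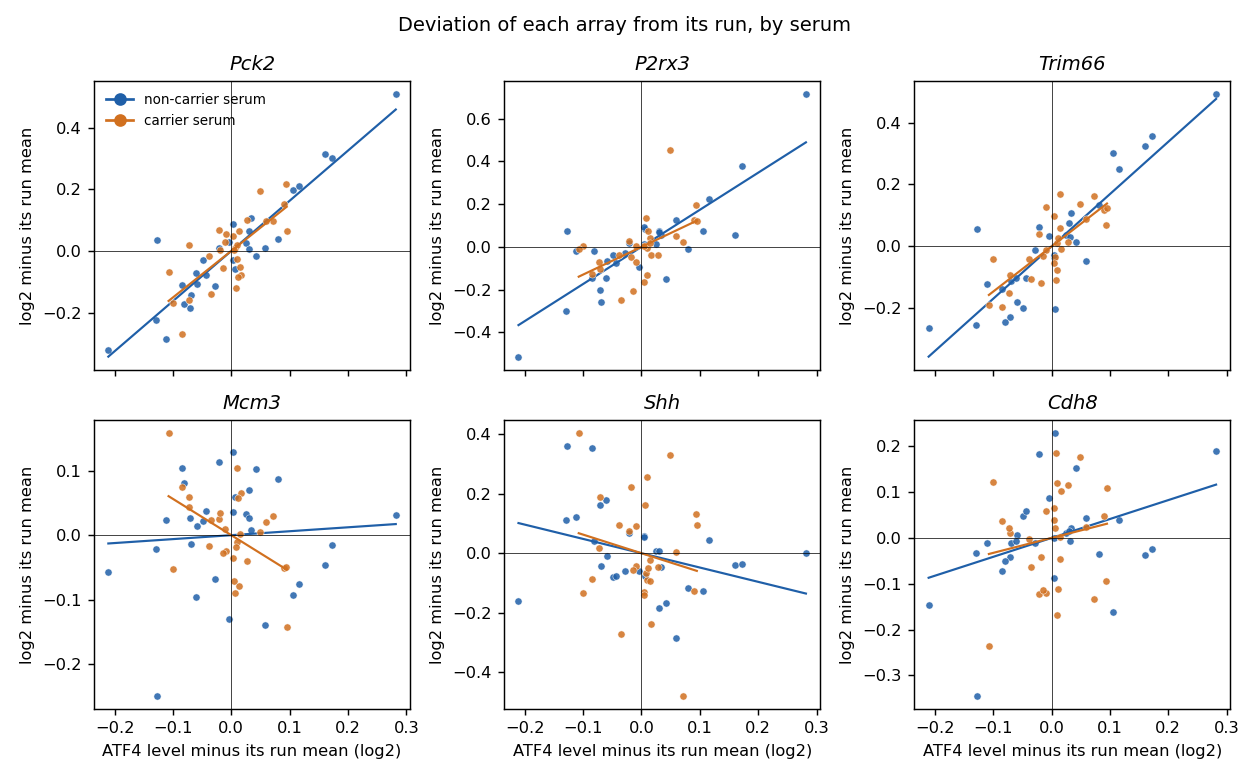
Deviation of 6 genes from their run mean (log2, y axis) against the deviation of the ATF4 level from its run mean (log2, x axis), for 30 non-carrier and 29 carrier arrays, with least-squares lines through the origin. Pck2, P2rx3 and Trim66 rise with the level in both sera, while Shh, Cdh8 and Mcm3 scatter.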

How the data were processed

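Per the methods, the authors made gene values from exon arrays with RMA in the aroma.affymetrix package, taking the mean of all exons of a gene, normalized all arrays together and first removed arrays called by Grubbs' test. The submitters' processing notes name Affymetrix Expression Console and RMA. What was deposited is 1 linear intensity per array for each of 19613 gene symbols, and the later correction for batches of cells was not applied to it. Log2 intensities were used with 0 added. Runs A to F are ranges of array numbers in the titles. The labels do not say whether arrays of a group are separate cultures or mice, so p-values measure the spread between these arrays, whose number limits the precision.

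The non-carrier difference was described by whether groups overlap. The carrier arrays were fitted in limma 3.58.1 (R 4.3.3; lmFit, eBayes), where duplicateCorrelation took the run as a random block with a within-run correlation of 0.448. Tests were two-sided, p-values were adjusted by Benjamini and Hochberg's method across the table, and 0.05 was the threshold. Slopes were fitted with the run as a fixed block and adjusted over 19537 genes. The procedures were tested on simulated data, where the carrier fit kept false calls low without a spread between runs but not with one (stated beside the calls). The members, lists and tests were chosen with earlier results of these data known. Named genes were Atf4, Ddit3, Atf3, Mthfd2, Olig2, Mnx1, Isl1 and Lhx3. Added to these were the 2 members of each list with the largest non-carrier difference among those without overlap and, outside the branch, called the same way with carrier serum. The 10 largest such rises and 10 largest such falls over all genes with a mean log2 intensity at or above the lower quartile (5.84) were named too, as were the 5 steepest positive and up to 5 negative called slopes above that limit. Alternatives covered normalization, an offset of 16, dim genes, the block, covariates, the level and each run left out. All columns were matched to samples. Some genes that the rule names are not reported here.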

Additional observations from a re-analysis of the deposited data

Results flagged for a closer look

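Within the 4 groups of 8 or 9 arrays, the ATF4 level, 8 list levels and the named genes were examined for an array far from the others, and 8 of 248 sets held one, where chance gives about 1 in 20. Carrier array HEMI138 of run E lay apart for Lhx3, at 8.31 with the nearest array at 8.85, for Ect2, at 9.48 against 9.16, and for Cdc42ep2, at 7.20 against 7.83. Carrier array HEMI124 of run C was low for the hypoxia and glycolysis list, at a mean log2 intensity of 9.93 against 10.34, and for 2900055J20Rik, at 7.22 against 7.77. Non-carrier array NCAR108 of run B was low for Ect2, at 8.96 against 9.09, and for 2900055J20Rik, at 7.26 against 7.84. Non-carrier array NCAR133 of run E was low for Lhx3, at 8.77 against 8.99.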

How the results depend on the processing

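Shares are of all genes of a comparison. The 962 genes without overlap in the non-carrier arrays (4.90%) lay between 5.92% and 16.3% with each run left out. Leaving a run out can only keep or raise this count, since fewer arrays must lie apart. After regression on Olig2, Mnx1, Isl1 and Lhx3 it was 1 gene (Rundc3a, 0.0051%). Among the carrier arrays the share called, 1.03%, was 12.8% with no block, 2.87% with run C parted into 2 blocks, 0.00512% (Cdh8) with 1 mean per run or with the 4 genes as covariates, 0.517% without the arrays called by Grubbs' test (chosen after seeing the data, 92 genes shared) and 0.0102% to 2.13% with a run left out. The 38 slopes (0.195%) became 0.655% with the mean of Atf4, Ddit3, Atf3 and Mthfd2 as the level, 0.358% with arrays centred on their medians, 0 over the other 4 runs, 0 over the carrier arrays and 0.0358% to 0.241% with a run left out. The difference in ATF4 level was 1.07 with those 4 genes. With a run left out, non-carrier medians ranged from 0.25 to 0.61 for replication, 0.18 to 0.57 for mitosis and 0.35 to 0.67 for floor plate genes. With a run left out the carrier difference, not called, ranged from -0.13 to 0.15 for Mnx1 (-0.097 without run F), from -0.11 to 0.17 for Isl1 (-0.028 without run B) and from -0.22 to 0.036 for Lhx3 (0.016 without run E). No paired analysis was possible because carrier and non-carrier arrays were not compared and replicate numbers are not shared between the runs compared. Causes of the other changes were not tested.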

Other observations

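The 4 runs outside the comparison gave values of their own. In the run labelled 10 weeks Shh ranged from 10.27 to 10.46 with non-carrier serum and Slc7a11 from 8.54 to 9.36, while Cdh8 ranged from 6.24 to 6.33. In run D Slc7a11 ranged from 6.44 to 7.08 and Shh from 7.81 to 7.90. In the run titled motorneuron Cdh8 ranged from 6.48 to 7.05 with Slc7a11 at 5.36 to 5.51, so a low Cdh8 was measured there beside a low Slc7a11. In the run labelled 10 weeks the floor plate list had a mean deviation of 0.98 and the cholesterol list one of -0.41.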
